A study of Mus musculus with 9 samples.

Results

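This account describes the genes that mark cholinergic motor neurons in mouse spinal cord. Members were chosen by name for acetylcholine handling (Chat, Slc18a3, Slc5a7, Ache), motor neuron transcription factors (Isl1, Mnx1), the filament gene Prph, the peptide genes Calca and Calcb, and Chodl. Of these 10 named genes, 9 were analysed among the 14831 genes of the table, and Slc18a3, the vesicular acetylcholine transporter, was not analysed here. The study asked what loss of C9orf72 function does in the spinal cord. A repeat expansion in C9orf72 is a frequent inherited cause of amyotrophic lateral sclerosis, a disease in which motor neurons die.

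All 9 libraries came from the spinal cord of wild-type C57Bl/6 females aged 10 weeks, taken 2 weeks after 10 µl was given into the right lateral ventricle. A first group of 3 libraries came from animals given saline. The second group of 3 received 500 µg of a control antisense oligonucleotide (ASO #456835), a short nucleic acid that pairs with a chosen RNA. The third group of 3 received 500 µg of an ASO against C9orf72 (#571883). Separate animals per library are not stated in the labels, so the p-values measure only the spread between these libraries, which may be technical.

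Motor neurons of the ventral horn release acetylcholine onto muscle. Chat makes acetylcholine, the vesicular transporter loads it into vesicles, Ache breaks it down in the synaptic cleft and Slc5a7 takes the freed choline back up. Isl1 and Mnx1 are homeodomain factors that set motor neuron identity in the embryo. Motor neurons also make the peptide CGRP from Calca and Calcb. These genes are not exclusive to motor neurons: Isl1, Prph, Calca and Calcb are also made by sensory ganglion neurons, and Ache by many neurons. In whole tissue, fewer cells of a type and less RNA per cell cannot be told apart.

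Levels are in RPKM, reads scaled to transcript length and to library size, with every value under 0.5 replaced by 0.1 in the deposited table. The steps between low values gave a depth of 90.6 to 123.9 M reads per library. C9orf72 was at 10.5, 11.4 and 11.5 RPKM after saline, 11.2, 11.7 and 10.6 after the control ASO, and 2.68, 3.40 and 3.12 after the C9orf72 ASO, which matches the labels (log2 fold change -1.84, limma adjusted p = 1.83e-06 against the control ASO). Libraries differed in a trend with transcript length. The median log2 value of short transcripts (up to 1938 bases) minus that of long transcripts (from 5323 bases), each gene relative to its mean over libraries, was 0.168, -0.206 and 0.071 in the saline libraries, -0.087, -0.077 and -0.098 in the control ASO libraries and 0.047, 0.022 and 0.178 in the C9orf72 ASO libraries. Every C9orf72 ASO library thus lay above every control ASO library in this trend, while the saline libraries spanned both groups. The 10 general neuron markers summed to 2728 to 2897 RPKM after saline, 2827 to 3053 after the control ASO and 2574 to 2901 after the C9orf72 ASO, with Snap25 (log2 fold change -0.15, adjusted p = 0.432) and Syp (-0.14, adjusted p = 0.434) the 2 with the smallest p against the control ASO. The 12 glia and vessel markers summed to 3671 to 4118, 3809 to 4026 and 3568 to 3925 RPKM, and their 2 with the smallest p were P2ry12 (0.25, adjusted p = 0.234) and Gja1 (-0.28, adjusted p = 0.234). None of these 22 genes was called by limma, and 2 had an unadjusted p under 0.05.

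The 2 CGRP genes, Calca and Calcb, are near copies in part of their coding sequence, so their sequences are shown first. The stretches of 120 coding bases with the highest identity hold 115 identical bases, and capitals mark the 5 that differ (Calca-201 coding bases 227 to 346, Calcb-201 coding bases 230 to 349, GENCODE M21).
Calca: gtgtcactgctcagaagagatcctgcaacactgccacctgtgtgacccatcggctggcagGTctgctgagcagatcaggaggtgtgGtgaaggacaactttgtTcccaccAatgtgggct
Calcb: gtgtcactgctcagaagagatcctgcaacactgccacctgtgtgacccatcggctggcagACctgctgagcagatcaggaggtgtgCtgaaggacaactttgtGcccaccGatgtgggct

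Over their whole coding sequences these transcripts were 83.1% identical (396 aligned columns), and their longest shared run was 60 bases. Of the 945 windows of 50 bases in Calca-201, 11 also occurred in Calcb-201. Calca is spliced into either a CGRP or a calcitonin transcript, and the calcitonin form Calca-202 shared at most 13 bases in a row with Calcb-201. The sources used here give neither the read length nor the treatment of reads that fit both genes, so a small part of the reads of Calca and Calcb may be split uncertainly. The table has 1 value per gene and does not separate CGRP from calcitonin transcripts.

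All 9 genes were above 0.5 RPKM in every library, and all 9 passed the filter of at least 0.5 RPKM in at least 3 libraries. In the saline group Ache had the highest mean level, 35.0 RPKM ± 2.53 (SD, n = 3), at percentile 87.1 of all genes. It was followed by Prph (25.3 ± 4.58), Slc5a7 (18.7 ± 0.433), Calca (12.6 ± 2.06), Chodl (7.20 ± 0.706), Chat (6.17 ± 0.436), Calcb (4.59 ± 0.285), Mnx1 (0.826 ± 0.156) and Isl1 (0.627 ± 0.0856). In that order the saline libraries of neighbouring genes overlapped only between Mnx1 (0.720 to 1.01 RPKM) and Isl1 (0.568 to 0.725), and between Chodl (6.47 to 7.88) and Chat (5.70 to 6.57). The factors were close to the 0.5 RPKM limit, at percentiles 6.0 (Isl1) and 8.7 (Mnx1), whereas Chat stood at percentile 43.4 and Slc5a7 at 75.2.

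**Figure D1:**
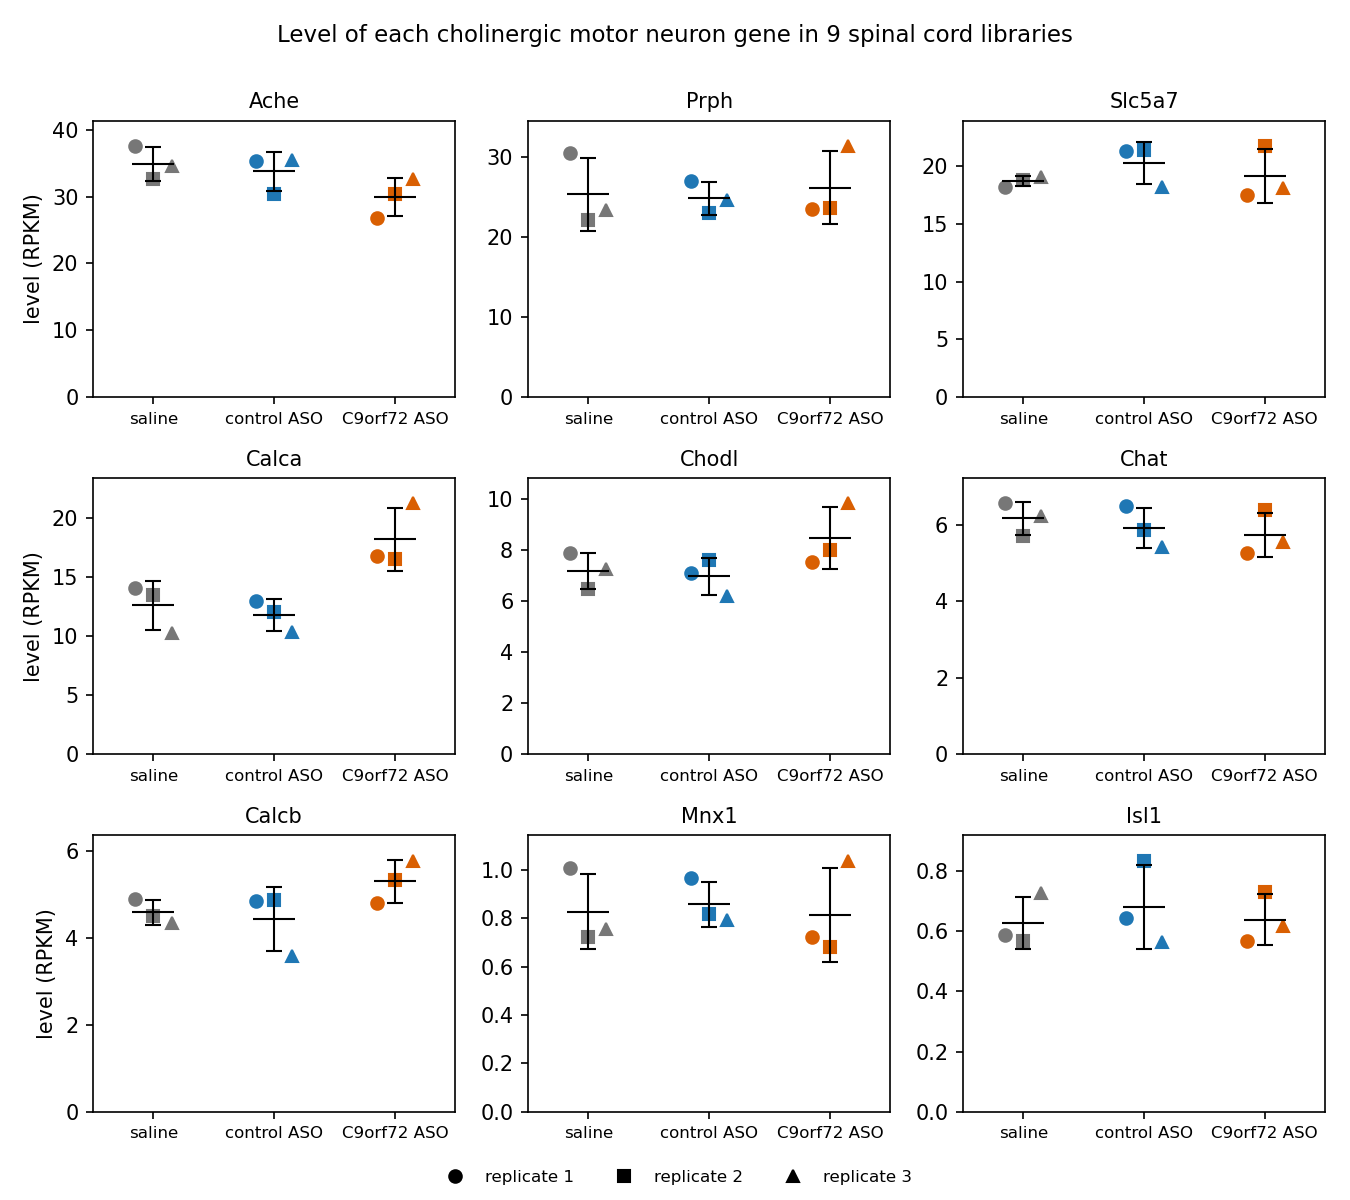
RPKM of each gene (vertical axis, from 0) in the saline, control ASO and C9orf72 ASO groups, 1 point per library, with the mean as a long bar and the SD of 3 libraries as the error bar. The C9orf72 ASO libraries of Calca, from 16.5 to 21.3 RPKM, lie above the other libraries, which reach 14.1, and the groups of the other genes overlap in at least 1 comparison.

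Chat and Slc5a7 overlapped between all groups, Ache was lower in the C9orf72 ASO libraries than in the saline libraries, and no member passed the threshold in any comparison. Chat, the enzyme that makes acetylcholine, was at 6.57, 5.70 and 6.24 RPKM after saline, 6.48, 5.85 and 5.43 after the control ASO, and 5.28, 6.39 and 5.54 after the C9orf72 ASO. The 3 groups overlapped. Its log2 fold change between the C9orf72 ASO and the control ASO was -0.05 (SE 0.09, 95% interval -0.24 to 0.15, limma adjusted p = 0.839), and against saline it was -0.11 (adjusted p = 0.641).

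Slc5a7, the high-affinity choline transporter of cholinergic terminals, was at 18.2, 18.8 and 19.1 RPKM after saline, 21.3, 21.4 and 18.2 after the control ASO, and 17.5, 21.8 and 18.1 after the C9orf72 ASO. The saline libraries lay close together and inside the range of both ASO groups. The log2 fold change was -0.09 (95% interval -0.28 to 0.11, adjusted p = 0.675) against the control ASO and 0.03 (adjusted p = 0.914) against saline. The ratio of Slc5a7 to Chat, 2 genes of the same terminals, was 3.04 ± 0.258 after saline, 3.43 ± 0.193 after the control ASO and 3.34 ± 0.0720 after the C9orf72 ASO (SD, n = 3).

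Ache, the acetylcholinesterase, was at 37.7, 32.7 and 34.6 RPKM after saline, 35.4, 30.5 and 35.5 after the control ASO, and 26.9, 30.4 and 32.6 after the C9orf72 ASO. The highest C9orf72 ASO library lay just under the lowest saline library, and it lay above the lowest control ASO library. The log2 fold change was -0.22 (95% interval -0.42 to -0.03, limma adjusted p = 0.287) against saline and -0.18 (-0.37 to 0.02, adjusted p = 0.389) against the control ASO, so neither passed the threshold of 0.05. Against saline the value was -0.15 without C9orf72 ASO 1 and -0.07 with the trends of length and GC content removed.

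The transcription factors Isl1 and Mnx1 differed between groups by less than the spread between libraries. Isl1 was at 0.588, 0.568 and 0.725 RPKM after saline, 0.642, 0.833 and 0.564 after the control ASO, and 0.568, 0.730 and 0.616 after the C9orf72 ASO. Mnx1 was at 1.01, 0.720 and 0.754 RPKM after saline, 0.964, 0.818 and 0.791 after the control ASO, and 0.723, 0.681 and 1.04 after the C9orf72 ASO. In both genes the 3 groups overlapped. Against the control ASO the log2 fold change was -0.07 for Isl1 (95% interval -0.53 to 0.39, adjusted p = 0.901) and -0.08 for Mnx1 (-0.51 to 0.34, adjusted p = 0.865), the widest intervals of the 9 genes. From depth and exon length, Isl1 rested on about 202 to 356 reads per library and Mnx1 on 161 to 286, so that counting error alone was 7.03% and 7.88% at the lowest values.

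Prph encodes peripherin, an intermediate filament of neurons whose axons leave the central nervous system. Its level was 30.5, 22.0 and 23.3 RPKM after saline, 27.0, 22.9 and 24.5 after the control ASO, and 23.4, 23.6 and 31.4 after the C9orf72 ASO. A single library stood high in the saline group (saline 1) and in the C9orf72 ASO group (C9orf72 ASO 3), and the groups overlapped. The log2 fold change was 0.06 against the control ASO (95% interval -0.23 to 0.36, adjusted p = 0.854), and it was -0.08 without C9orf72 ASO 3.

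Calca, the source of the motor neuron peptide CGRP, was higher in each C9orf72 ASO library than in each control library, but did not pass the threshold. It was at 14.1, 13.5 and 10.2 RPKM after saline, 13.0, 12.04 and 10.3 after the control ASO, and 16.8, 16.5 and 21.3 after the C9orf72 ASO. The lowest C9orf72 ASO library lay above the highest of the other 6. The group means were 12.6 ± 2.06, 11.8 ± 1.34 and 18.2 ± 2.65 RPKM (SD, n = 3).

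Against the control ASO the log2 fold change of Calca was 0.62 (SE 0.13, 95% interval 0.33 to 0.91), a 1.54-fold difference with an interval of 1.26 to 1.88. The limma adjusted p was 0.171, rank 52 of the 14430 genes tested. Against saline the log2 fold change was 0.53 (0.24 to 0.82, adjusted p = 0.173), and against both control groups 0.57 (0.32 to 0.83, adjusted p = 0.0764). These comparisons share the 3 C9orf72 ASO libraries and are not independent. The exact permutation test against the 6 control libraries gave p = 0.0119 (two-sided), the smallest its 84 splits allow, and 3 against 3 cannot go below 0.1.

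The fold change of Calca was positive in all 20 alternative settings, from 0.47 with length and GC trends removed to 0.69 without control ASO 1. The limma adjusted p ran from 0.0753 to 0.523. Settings that change only the error estimate, the floor values, the filter or the saline libraries cannot move this fold change. They returned the reported value, so they do not test its sign. Without C9orf72 ASO 3, the highest library of Calca, the log2 fold change was 0.50. The length trend moved with this comparison, from 0.022 to 0.178 in the C9orf72 ASO libraries and from -0.098 to -0.077 in the control ASO libraries, and it was highest in C9orf72 ASO 3. By longest transcript, the members among the short transcripts of this trend were Calca (994 bases), Calcb (962) and Prph (1863). In the saline libraries the trend and the level of Calca were 0.168 and 14.1 RPKM (saline 1), -0.206 and 13.5 (saline 2), and 0.071 and 10.2 (saline 3). With length and GC trends removed, the value of 0.47 had an adjusted p of 0.255 by limma. The part of the length trend, or of other differences between libraries, in the value was not tested.

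**Figure D2:**
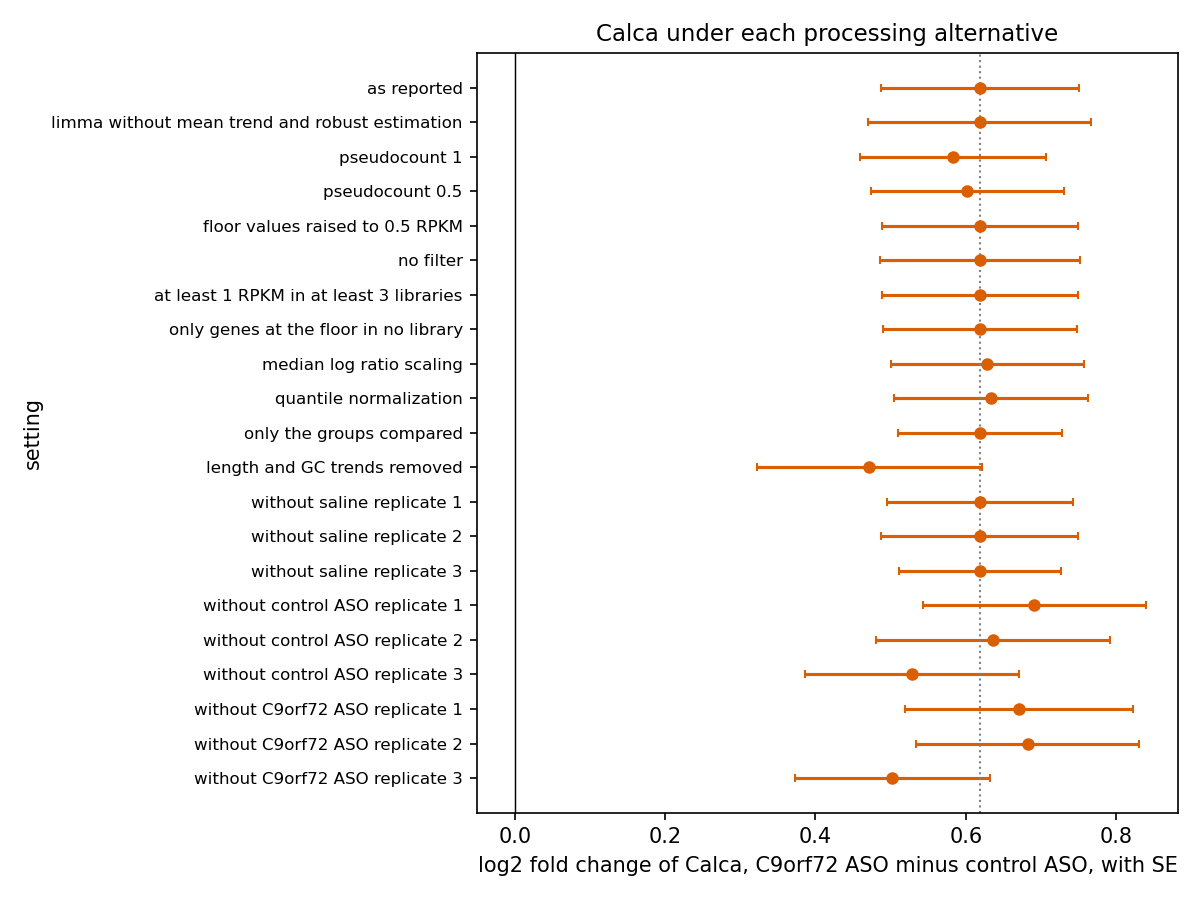
Log2 fold change of Calca between the C9orf72 ASO and the control ASO (horizontal axis, points, with the standard error as bars) as reported and under each of 20 alternative settings (vertical axis). All points lie above 0, between 0.47 and 0.69, and the dotted line marks the reported 0.62. Points on this line include settings that cannot move the fold change.

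Calcb, the second CGRP gene, was at 4.91, 4.51 and 4.36 RPKM after saline, 4.86, 4.88 and 3.60 after the control ASO, and 4.81, 5.32 and 5.78 after the C9orf72 ASO. C9orf72 ASO 2 and 3 were the highest of the 9 libraries, but C9orf72 ASO 1 lay within both control groups. Against the control ASO the log2 fold change was 0.26 (95% interval 0.01 to 0.51, adjusted p = 0.344), and it was 0.12 without control ASO 3 and 0.11 with length and GC trends removed. The ratio of Calca to Calcb was 2.74 ± 0.339 after saline, 2.67 ± 0.205 after the control ASO and 3.43 ± 0.292 after the C9orf72 ASO (SD, n = 3). Each C9orf72 ASO library (3.50, 3.11 and 3.68) had a higher ratio than each control library, which reached 2.99.

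Chodl encodes chondrolectin, a membrane protein of fast motor neurons. Its level was 7.88, 6.47 and 7.25 RPKM after saline, 7.11, 7.62 and 6.20 after the control ASO, and 7.54, 8.03 and 9.85 after the C9orf72 ASO. C9orf72 ASO 3 and 2 were the highest libraries, and C9orf72 ASO 1 lay within both control groups. The log2 fold change was 0.27 (95% interval 0.03 to 0.51, adjusted p = 0.31) against the control ASO and 0.23 (adjusted p = 0.385) against saline. Without C9orf72 ASO 3 it was 0.16 against the control ASO and 0.11 against saline.

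**Figure D3:**
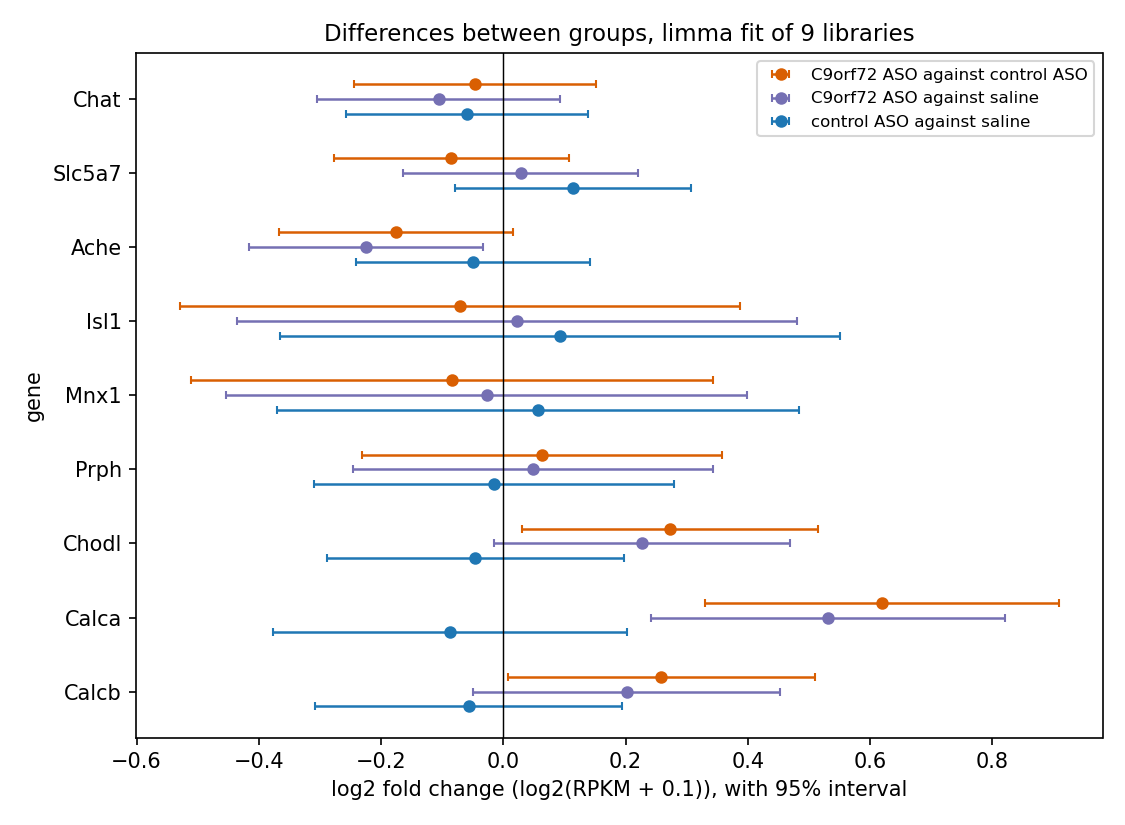
Log2 fold changes of the 9 genes in 3 comparisons (horizontal axis, points with 95% intervals from limma, genes on the vertical axis). The intervals of Calca against either control group lie wholly above 0, Chodl and Calcb do so against the control ASO only, and Ache lies below 0 against saline only.

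Counted over the members, 0 of 9 genes were called in each of the 4 comparisons, and 0.0693% of all genes tested were called against the control ASO, 0.0693% against saline, 0.00693% between the control ASO and saline and 0.173% against both control groups. At an unadjusted limma p under 0.05 there were 3 of 9 against the control ASO (Calca, Calcb and Chodl), where 14.1% of all genes tested passed. There were 2 of 9 against saline (Calca higher and Ache lower), with 14% of all genes. Against both control groups 4 of 9 passed, with 16.7% of all genes, and between the control ASO and saline 0 of 9, with 5.35%. Groups did not overlap for 1 of 9 genes against the control ASO (Calca, higher), where 10.1% of all genes were higher and 11.8% lower without overlap. Against saline 1 gene was higher (Calca) and 1 lower (Ache), with 5.61% and 12.4% of all genes. Against both control groups 1 gene was higher (Calca) and 0 lower, with 2.82% and 5.05% of all genes. Between the control ASO and saline the count was 0 in both directions, with 3.16% and 7.15%. With 9 genes, a single gene is 11.1% of the members, so these counts say little about the members as a set.

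Between the control ASO and saline the 9 log2 fold changes ran from -0.09 (Calca, limma adjusted p = 0.88) to 0.11 (Slc5a7, adjusted p = 0.794). The median log2 fold change of the 9 genes against the control ASO was -0.05, beside -0.01 over all genes tested. Isl1 and Mnx1 had a pooled SD within groups of 0.197 and 0.231 on the log2 scale, Prph 0.212 and Calca 0.207, against 0.124 for Chat and for Ache and 0.125 for Slc5a7. The median over all genes tested was 0.102, and 9.9% of them varied more than Calca.

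C9orf72 ASO 3 was the highest of the 9 libraries for 5 genes (Mnx1, Prph, Calca, Calcb and Chodl), and C9orf72 ASO 1 and control ASO 3 were the lowest for 3 genes each. Across the 9 libraries Chat and Slc5a7 had Pearson's r = 0.58 (exact permutation p = 0.107, adjusted p = 0.269 over 5 relations) and Spearman's rho = 0.65 (exact permutation p = 0.0666, adjusted p = 0.166). Without the 2 libraries farthest from the median of Chat, r was 0.765. Prph and Chat had r = 0.23 (exact permutation p = 0.539; rho = 0.22, p = 0.581; r = 0.38 without the 2 farthest). Isl1 and Mnx1 had r = -0.15 (exact permutation p = 0.686; rho = 0.02, p = 0.982; r = 0.12 without the 2 farthest). None of these 3 relations passed a p of 0.05.

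Over the 9 libraries Calca and Calcb had r = 0.83 (exact permutation p = 0.00552, adjusted p = 0.0276 over 5 relations). Their rho was 0.72 (exact permutation p = 0.0369, adjusted p = 0.166). Calca and Prph had r = 0.47 (exact permutation p = 0.207). Without the 2 of the 9 libraries farthest from the median of Calca, r was 0.76 for Calca with Calcb and -0.05 for Calca with Prph. These values include the difference between groups in Calca. Because the C9orf72 ASO libraries stood apart in Calca, its relations were also taken over the 6 saline and control ASO libraries. There Calca and Calcb had r = 0.73 (exact permutation p = 0.0819, adjusted p = 0.164 over 2 relations) and rho = 0.71 (exact permutation p = 0.136). Without the 2 libraries farthest from the median of Calca, r was -0.23, so the relation rests on those libraries. Calca and Prph had r = 0.45 (exact permutation p = 0.374; rho = 0.26, p = 0.658; r = 0.57 without the 2 farthest).

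By correlation over the 9 libraries, the non-member genes most like Calca were Uts2 (r = 0.93), Serpind1 (0.92), Nmbr (0.92), Lag3 (0.91) and the unnamed ENSMUSG00000074148 (0.91). Those most like Chat were Mir186 (0.92), Uap1 (0.90), Gm15535 (0.89), Stip1 (0.89) and Mob2 (0.88). Each set is the best of 14430 genes, so high values are a product of the search. Uts2, with a longest transcript of 538 bases (short in the length trend), encodes urotensin II, a peptide known from motor neurons. It was at 4.76, 5.02 and 4.05 RPKM after saline, 5.61, 3.90 and 3.15 after the control ASO, and 6.34, 5.46 and 9.89 after the C9orf72 ASO. Its log2 fold change against the control ASO was 0.76 (SE 0.23, limma adjusted p = 0.247), and as it was picked for its likeness to Calca, this is no separate evidence.

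Of 18 other motor neuron genes, 12 were tested, and against the control ASO 4 had higher and 8 had lower values, with 0 called by limma, 1 at an unadjusted p under 0.05 and a median log2 fold change of -0.13. The gene at that p was Uts2b, a urotensin-related peptide gene with a longest transcript of 835 bases (short in the length trend). Its level was 3.26, 3.02 and 3.39 RPKM after saline, 3.25, 4.002 and 2.90 after the control ASO, and 4.34, 4.82 and 4.57 after the C9orf72 ASO. The lowest C9orf72 ASO library lay above the highest control library. The log2 fold change was 0.44 (SE 0.10, adjusted p = 0.202) against the control ASO, 0.49 (adjusted p = 0.116) against saline and 0.46 (adjusted p = 0.0733) against both, and with length and GC trends removed the first of these was 0.23. Nos1, nitric oxide synthase, was at -0.17 against the control ASO (adjusted p = 0.377). Its C9orf72 ASO libraries (7.91 to 9.13 RPKM) lay below all saline and control ASO libraries (9.31 to 11.1). Over the alternatives with no library left out, its value ran from -0.17 to -0.03. Of all genes tested, 2.82% were higher and 5.05% lower than both control groups without overlap. Mmp9, a protease of fast motor neurons, ran from 1.41 to 1.83 RPKM over the 9 libraries.

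**Figure D4:**
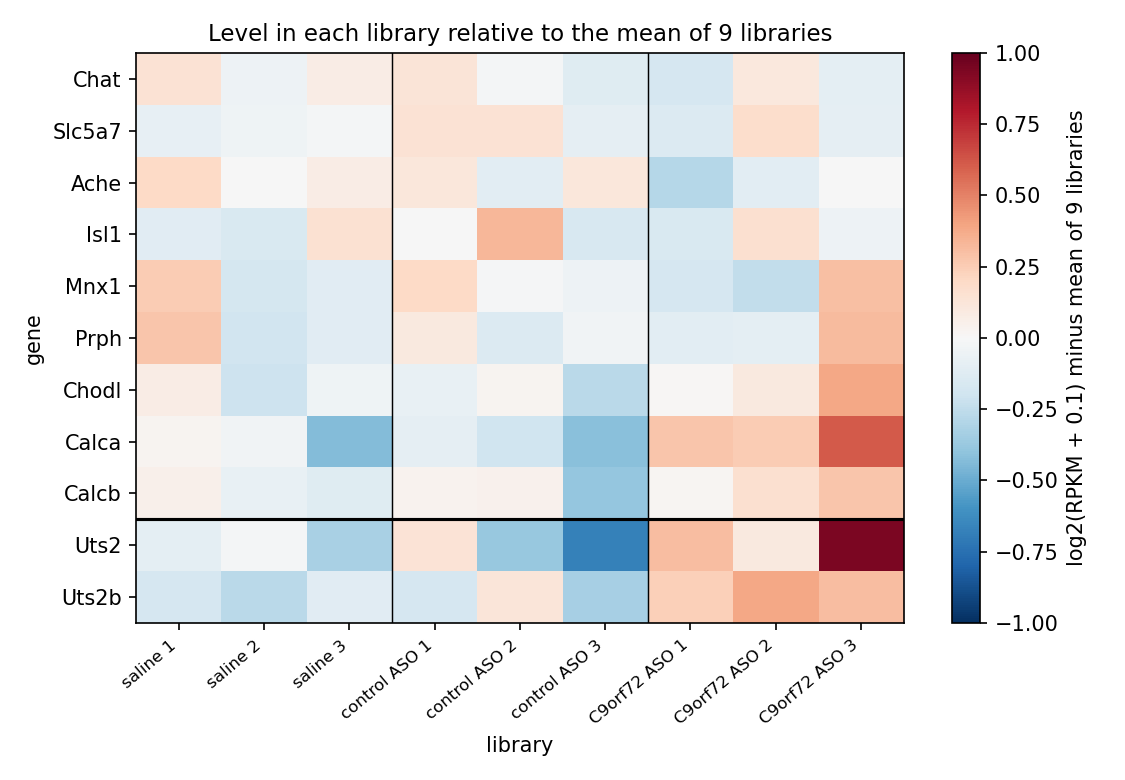
Level of each member and, under the thick line, of Uts2 and Uts2b in each library, as log2(RPKM + 0.1) minus the mean of the 9 libraries (colour, red above and blue below). Calca is red in all C9orf72 ASO libraries, up to 0.616 in C9orf72 ASO 3, while Chat, Slc5a7 and Isl1 show no block of colour by group.

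Downstream of acetylcholine, 9 of 21 receptor genes were tested. Against the control ASO 1 had a higher and 8 had lower values, with a median log2 fold change of -0.14, and 0 were called by limma with 0 at an unadjusted p under 0.05. Chrm4, an inhibitory muscarinic receptor, was at 1.19, 1.15 and 1.23 RPKM after saline, 1.17, 1.02 and 1.16 after the control ASO, and 0.705, 0.804 and 1.12 after the C9orf72 ASO. Its log2 fold change was -0.34 (adjusted p = 0.363), and its groups overlapped in 1 library. Chrna4, a neuronal nicotinic subunit, was at -0.17 (adjusted p = 0.449), and Chrm2, a muscarinic receptor, ran from 11.9 to 16.2 RPKM.

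Of 18 genes for choline supply and cholinesterase partners, 15 were tested, and 4 had higher and 11 had lower values against the control ASO, with a median log2 fold change of -0.06. None was called by limma, and 1 had an unadjusted p under 0.05. That gene, Lynx1, which encodes a membrane-anchored modulator of nicotinic receptors, was at 51.0, 58.9 and 54.1 RPKM after saline, 61.5, 51.9 and 54.7 after the control ASO, and 44.6, 51.6 and 48.4 after the C9orf72 ASO. Its log2 fold change was -0.22 (adjusted p = 0.295). Bche, butyrylcholinesterase, the sister enzyme of Ache, was at 0.19 (adjusted p = 0.381), and Prima1, the membrane anchor of Ache, ran from 8.90 to 12.1 RPKM.

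No gene on the receptor side of CGRP was called. Of 8 CGRP and calcitonin receptor and ligand genes, 6 were tested, with 4 higher and 2 lower, a median log2 fold change of 0.02 and 0 called by limma (0 at an unadjusted p under 0.05). Calcrl, the receptor core, ran from 4.92 to 6.29 RPKM over the 9 libraries, and Ramp1, its CGRP partner, from 13.8 to 17.1. Adm, the related peptide adrenomedullin, was at -0.16 (adjusted p = 0.44) and Crcp, which encodes a CGRP receptor component, at 0.12 (adjusted p = 0.494). In Adm the C9orf72 ASO libraries (1.58 to 1.68 RPKM) lay below the control ASO libraries (1.81 to 1.84) and overlapped the saline libraries (1.37 to 1.66).

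Markers of other sources of Calca, Calcb and Prph were set beside these values. Of 13 sensory ganglion neuron markers, 3 were tested and 10 were not analysed here. P2rx3 was between the 0.1 floor and 0.635 RPKM, Pou4f1 between 3.27 and 3.92 and Prrxl1 between 3.53 and 4.69. The 3 genes summed to 7.61 to 8.64 RPKM after saline, 7.65 to 8.85 after the control ASO and 7.09 to 8.30 after the C9orf72 ASO. Most of this sum came from Pou4f1 and Prrxl1, which are also made by neurons of the spinal cord itself. The part of sensory neurons in the difference in Calca was not tested.

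Nerve root and muscle tissue were assessed in the same way. Among Schwann cell markers, Gldn ran from the 0.1 floor to 0.663 RPKM and Drp2 from 7.66 to 8.95 RPKM over the 9 libraries. Of 9 skeletal muscle markers 2 were tested, with sums of 13.9 to 14.5, 11.2 to 14.6 and 12.7 to 13.0 RPKM after saline, the control ASO and the C9orf72 ASO. Most of this sum came from Acta1. Mylpf, a muscle myosin light chain, was at 0.48 against the control ASO (adjusted p = 0.316) and Acta1, muscle actin, at 0.00 (adjusted p = 0.99). The C9orf72 ASO libraries of Mylpf (0.979 to 1.19 RPKM) lay above the control ASO libraries (0.645 to 0.842) and overlapped the saline libraries. Those of Acta1 (11.7 to 11.8) lay below the saline libraries (13.3 to 13.6) and overlapped the control ASO libraries. The longest transcripts of both (766 and 1446 bases) are short in the length trend.

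The 250 bases before the start are shown for Calca and Chodl, which had the highest fold changes of the members against the control ASO, and for Chat, the defining gene (RefSeq, GRCm38.p6, each on the strand of its gene). Capitals mark TAAT, the core that homeodomain factors such as Isl1 and Mnx1 bind, and TGACG, a part of the cyclic AMP response element. Each was searched on both strands, and overlapping matches were allowed. The positions are chr7:114636358-114636607 for Calca (minus strand), chr16:78930698-78930947 for Chodl (plus strand) and chr14:32465910-32466159 for Chat (minus strand).
Calca: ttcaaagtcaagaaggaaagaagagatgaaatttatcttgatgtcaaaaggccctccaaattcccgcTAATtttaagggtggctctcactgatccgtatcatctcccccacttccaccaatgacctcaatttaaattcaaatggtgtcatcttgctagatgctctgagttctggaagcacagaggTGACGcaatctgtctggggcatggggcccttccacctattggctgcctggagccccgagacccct
Chodl: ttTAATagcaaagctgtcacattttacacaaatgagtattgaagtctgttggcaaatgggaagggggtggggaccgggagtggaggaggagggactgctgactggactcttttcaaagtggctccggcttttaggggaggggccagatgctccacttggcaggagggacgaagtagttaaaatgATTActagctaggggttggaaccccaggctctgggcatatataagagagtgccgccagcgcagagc
Chat: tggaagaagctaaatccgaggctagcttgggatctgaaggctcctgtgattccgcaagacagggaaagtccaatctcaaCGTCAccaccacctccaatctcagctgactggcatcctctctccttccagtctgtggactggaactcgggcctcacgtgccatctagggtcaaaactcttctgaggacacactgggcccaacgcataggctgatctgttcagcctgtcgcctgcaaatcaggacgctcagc

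Promoters of 9 of the 10 named genes were matched. These 9 include Slc18a3, whose level was not analysed, and leave out Calcb. TAAT was present in 5 of the 9, against 54.9% of 32851 mouse promoters of the same length. TGACG was present in 4 of the 9, against 17.8% of promoters, and the full element TGACGTCA in 0 of 9, against 1.5%. Isl1 held 2 TAAT and 2 TGACG, and Calca and Slc18a3 each held 1 TAAT and 1 TGACG. Chodl held 2 TAAT, Mnx1 held 1 TAAT, and Chat held 1 TGACG. Such matches describe the letters of these windows and were not tied to the levels.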

How the data were processed

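Strand-specific RNA-seq was measured in 9 mouse spinal cord libraries, 3 per group. Per the submitters' processing notes, reads were trimmed with cutadapt 1.2.1 and aligned with GSNAP to mm9. The sources used here name neither the read counter nor the annotation. No header names the unit, and from their pattern the deposited values were read as RPKM that the authors computed. For genes up to 350 bases, value times length fell within 0.1 of a whole read for 66.7% to 76.8% of values, which gave the depth (90.6 to 123.9 M reads). These steps were not taken as recovered counts, and no count test was run. Values under 0.5 stood at 0.1 (5160 values, 3.87%). Gene IDs were matched to symbols in GENCODE M21 (14321 of 14831). This reference is on GRCm38 and served only for names, lengths and sequences, with promoters from RefSeq.

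All 9 libraries entered a single linear model of log2(RPKM + 0.1), fitted with limma 3.58.1 (R 4.3.3, statmod 1.5.0) with a mean trend and robust empirical Bayes, on 6 residual degrees of freedom. This scale understates the change of low genes. The filter required 0.5 RPKM or more in 3 or more libraries, which left 14430 genes and dropped 401. Adjusted p-values are Benjamini-Hochberg values over these genes, and a gene was called under 0.05. Single values were also compared by an exact permutation test of libraries, and correlations used log2(RPKM + 0.1). The fit was tested on simulated data. Alternatives covered the test setting, pseudocount, floor values, filter, scaling, libraries in the fit, length and GC trends, and each library left out in turn. All members were named, with C9orf72, the 5 genes most like Chat and the 5 most like Calca, and the 2 genes of smallest p from each of 9 further lists (receptors, choline supply, other motor neuron genes, CGRP receptors, and markers of sensory neurons, Schwann cells, muscle, neurons, glia and vessels). List genes given only as ranges were chosen after their values were seen. The members and lists were chosen with earlier results of these data known. A result of the Schwann cell list is not reported here.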

Additional observations from a re-analysis of the deposited data

How the results depend on the processing

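No member passed the threshold under any of the 20 alternatives, in any comparison (79 recomputed counts, all 0). Of 703 recomputed log2 fold changes of members, 656 kept their sign, 47 changed it and 0 crossed the threshold. The kept signs include settings that leave a fold change as it is by construction, such as another filter or a library outside the comparison left out. Of 395 for the other named genes, 5 changed sign. The reported values of the member fold changes that changed sign lay between -0.09 and 0.09.

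With length and GC trends removed, the log2 fold change of the control ASO against saline became 0.023 for Ache, 0.0051 for Chat and 0.085 for Prph. In the same setting, Mnx1 became 0.093, Isl1 -0.0099 and Slc5a7 -0.0065 against saline, Mnx1 0.020 against both control groups and Drp2 0.026 against the control ASO. Scaling by the median log ratio gave 0.0067 for Acta1 against the control ASO, 0.0041 for Mnx1 against saline and 0.0063 for Prph between the control groups. Quantile normalization gave 0.0086 for Acta1, 0.0079 for Mnx1 against saline and 0.0010 for Slc5a7 against both control groups.

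With each library left out in turn, the C9orf72 ASO against the control ASO ranged from -0.12 to 0.020 for Chat, -0.18 to 0.066 for Isl1, -0.25 to 0.019 for Mnx1, -0.075 to 0.13 for Prph, -0.082 to 0.11 for Acta1 and -0.92 to 0.014 for Gldn. Against saline the ranges were -0.066 to 0.12 for Isl1, -0.20 to 0.11 for Mnx1, -0.091 to 0.19 for Prph and -0.067 to 0.089 for Slc5a7. Against both control groups they were -0.11 to 0.045 for Isl1, -0.22 to 0.047 for Mnx1, -0.083 to 0.13 for Prph and -0.12 to 0.032 for Slc5a7. Between the control ASO and saline they were -0.097 to 0.023 for Ache, -0.23 to 0.0026 for Calca, -0.13 to 0.086 for Calcb, -0.13 to 0.00011 for Chat, -0.12 to 0.036 for Chodl, -0.044 to 0.20 for Isl1, -0.025 to 0.19 for Mnx1 and -0.11 to 0.13 for Prph.

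Over all genes, 10 were called against the control ASO, 19 without trend and robust estimation, 16 without a filter, 18 with length and GC trends removed and 7 to 27 with a library left out (27 without C9orf72 ASO 3). Against saline 10 were called, 4 with only the groups compared, 26 with the trends removed and 4 to 54 with a library left out (54 without C9orf72 ASO 3, 16 without control ASO 3, and 4 without saline 2, C9orf72 ASO 1 or C9orf72 ASO 2). Between the control groups the counts were 1, 9 without trend and robust estimation, 5 without a filter, 0 over genes never at the floor, 3 with the trends removed and 0 to 2 with a library left out. Against both control groups they were 25, 39 with at least 1 RPKM, 39 over genes never at the floor and 7 to 139 with a library left out (139 without C9orf72 ASO 3, 7 without C9orf72 ASO 1, 9 without saline 2 and 13 without control ASO 1). The cause was not tested.

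No paired analysis was possible because the labels name no pairing between libraries of different groups. They give no replicate numbers either, and the numbers used here follow the order of the samples in each group. With 3 libraries per group, the 95% intervals of the log2 fold change against the control ASO reach down to -0.24 for Chat, -0.28 for Slc5a7 and -0.53 for Isl1. Differences within these intervals remain possible. The bounds are not limits of detection, as Calca at 0.62 (0.33 to 0.91) was not called either. The Isl1 and Mnx1 values lay close to the 0.5 RPKM limit of the table.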
